A study of Rattus norvegicus with 34 samples.

Results

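Mt-nd6 encodes a subunit of complex I, the NADH dehydrogenase that feeds electrons into the respiratory chain, and it was followed here in the dorsal hippocampus of 34 rats as 1 transcript (ENSRNOT00000051268.3) of the 31196 listed in each rat's file. It was chosen by name, as the only mRNA made from the light-strand promoter of mitochondrial DNA. Its read count was scaled to counts-per-million (CPM) and set against the sum of the 12 mRNAs made from the other, heavy, strand in the same rat. That ratio is called the strand ratio below.

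Mitochondrial DNA is transcribed from both strands into long precursors, which are cut at the transfer RNAs that lie between most of the genes. The heavy-strand precursor yields nearly all of the mRNAs, whereas the light-strand precursor yields Mt-nd6, several transfer RNAs and long noncoding RNA that is largely degraded. Neurons rely on the respiratory chain for most of their ATP, and each of its complexes other than complex II holds mitochondrially encoded subunits.

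All animals were male Sprague Dawley rats that arrived at postnatal day (PN) 26 to 28, were housed singly and ate the same chow. In Experiment 1, 7 rats drank an 11% weight per volume solution of 65% fructose and 35% glucose (SUG) and 7 were given an extra bottle of water (CTL); the labels record PN104 for these rats, and the study's methods give an earlier day. In Experiment 2, collected at PN 83, 7 rats received antibiotics for 7 days, with ampicillin in the water at 1 mg/mL and neomycin and metronidazole (both at 100 mg/kg) and vancomycin (at 50 mg/kg) by gavage, and were then gavaged with an equal mixture of Parabacteroides distasonis and Parabacteroides johnsonii (ABX-PARA), 6 were gavaged with saline after the same antibiotics (ABX-SAL) and 7 had saline in place of both (SAL-SAL). The last 2 groups together formed the 13 combined controls, so comparisons within Experiment 2 share rats. The tissue was a mixture of cells, so that fewer cells rich in mitochondrial RNA and less of that RNA per cell cannot be told apart. The files pair no transcript with a gene, and the hippocampal identity of the tissue was therefore not checked against marker genes.

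The heavy-strand mRNAs were recognised without a name in the files. The first 13 rows of every file held Mt-nd6 and 12 transcripts that were also 12 of the 13 highest by mean transcripts-per-million (TPM), the lowest of them at 3643 TPM, while the row after the block had a mean of 1.88 TPM. Gene names were given to these 12 rows by the known order of the lengths of mammalian mitochondrial mRNAs, from Mt-nd5 at 1830 bases down to Mt-atp8 at 204 bases, with Mt-nd6 at 519 bases. The lengths of Mt-co2 (684 bases) and Mt-atp6 (681 bases) are close, but Mt-atp6 shares bases with Mt-atp8, and the estimated counts of those 2 rows, mostly fractions when taken singly, summed to a whole number (within 1e-06 counts) in 34 of 34 rats. The strand sum does not depend on which row carries which name. Mt-nd6 itself held whole counts by the same tolerance in every rat, with no sign of reads divided with another transcript.

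By captured reads, Mt-nd6 was by far the scarcest mitochondrial mRNA in these libraries. Levels here and below are of RNA captured by an mRNA kit, and differences in capture between mRNAs were not tested. It received a mean of 1489.8 reads per rat and at most 2224, out of 14394530 to 22332725 reads assigned to transcripts. Divided by transcript length, its mean level over the 34 rats was 171 ± 19.3 (SD) RPKM, reads scaled to all assigned reads and to the full length. The median of the 12 heavy-strand mRNAs on the same scale was 8857, which is 51.8-fold higher (45.5-fold by TPM, which divides by the shorter effective length that reads can start in). Even so, Mt-nd6 ranked 254 among all transcripts by mean TPM.

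Among the heavy-strand mRNAs, the level per full length was lowest for Mt-nd3, a small complex I subunit, at 2736 RPKM, 16.0-fold above Mt-nd6. Mt-nd5, the heavy-strand neighbour of Mt-nd6 in the genome, was next, at 24.3-fold. The other complex I subunits with undivided reads, Mt-nd2, Mt-nd4 and Mt-nd1, were 42.5-fold, 44.1-fold and 53.1-fold above it. Mt-cyb, the cytochrome b of complex III, stood 50.5-fold above Mt-nd6 per length. Of the subunits of cytochrome c oxidase, the catalytic Mt-co1 was highest, at 19616 and 115-fold, with Mt-co3 at 72.9-fold and Mt-co2 at 65.8-fold. The ranges over rats of Mt-nd6 (132 to 215) and of Mt-nd3 (1539 to 3589) did not meet. The values of Mt-atp8 (169-fold), Mt-atp6 (88.7-fold) and Mt-nd4l (44.7-fold) rest on reads divided between transcripts and are less certain. The order and the folds depended on the length used: by TPM, Mt-nd5 was the lowest heavy-strand mRNA, 14.7-fold above Mt-nd6. By the same measure Mt-nd4 stood at 28.0-fold, Mt-nd3 at 29.3-fold, Mt-cyb at 33.6-fold and Mt-co1 at 71.2-fold, and the short Mt-nd4l and Mt-atp8 at 139-fold and 1723-fold. Mt-nd6 had the lowest mean on both scales.

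**Figure D1:**
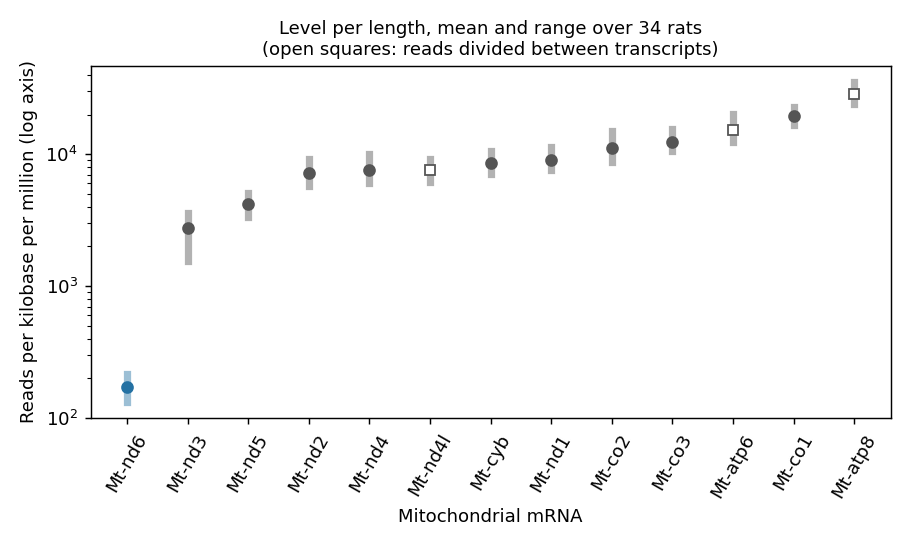
Level per length (RPKM, log axis) for the 13 mitochondrial mRNAs, with points at the mean and bars from the lowest to the highest of 34 rats, blue for Mt-nd6 and open squares for mRNAs with divided reads. In captured reads, Mt-nd6, at a mean of 171, lies below the lowest rat of every heavy-strand mRNA.

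In CPM, the level of Mt-nd6 was similar in all 5 groups and the groups overlapped throughout. The 7 SUG rats ran from 76.3 to 97.2 CPM with a median of 90.2, and their mean was 87.0 ± 8.97 (SD). The 7 CTL rats ran from 67.7 to 113 CPM with a median of 83.2 and a mean of 86.0 ± 14.5 (SD). The CTL rats thus enclosed every SUG rat, and CTL held both the lowest (rat 1) and the highest (rat 3) Mt-nd6 level of the series.

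The 7 ABX-PARA rats ran from 81.6 to 109 CPM, with a median of 88.7 and a mean of 92.0 ± 9.13 (SD). The 6 ABX-SAL rats ran from 71.9 to 96.6 CPM, with a median of 90.9 and a mean of 88.4 ± 8.85 (SD). The 7 SAL-SAL rats ran from 82.5 to 111 CPM, with a median of 86.3 and a mean of 90.5 ± 9.69 (SD). The highest rats of Experiment 2 were SAL-SAL rat 6 and ABX-PARA rat 8, and ABX-SAL rat 6 lay below all the others.

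Ordered by mean log2 CPM, the groups ran ABX-PARA (6.52), SAL-SAL (6.49), ABX-SAL (6.46), SUG (6.44) and CTL (6.41). No neighbours in this order differed beyond their spread: the 4 differences were 0.023 to 0.033 on the log2 scale, with a two-sided exact permutation p of 0.688 to 0.803 and an adjusted p of 0.803 for each over the 8 neighbour tests made. Between the experiments, age and cohort cannot be told apart from treatment.

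**Figure D2:**
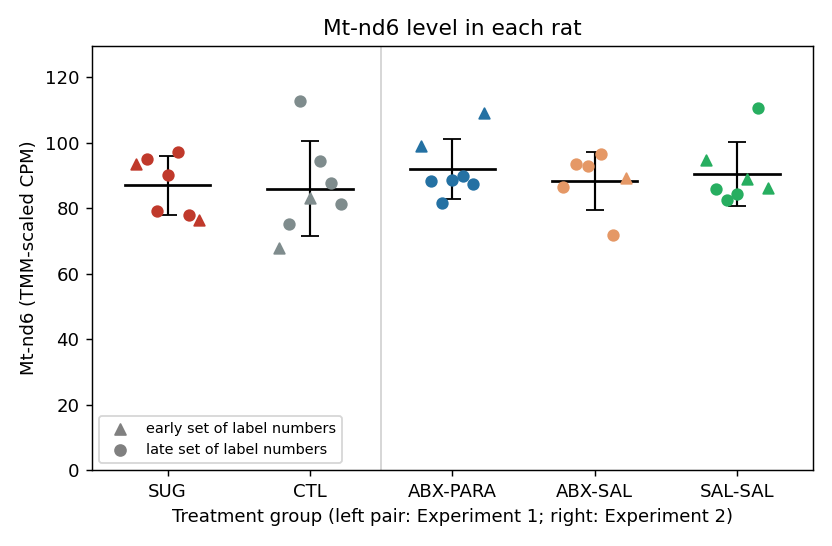
Mt-nd6 in CPM scaled by the trimmed mean of M-values (TMM), 1 point per rat, for the 5 groups, with lines and bars giving the mean and SD and the shape of a point giving the set of label numbers. All 5 means lie between 86.0 and 92.0 CPM, and the 7 CTL rats are the most scattered.

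The first comparison asked whether early life sugar altered the light-strand transcript. Mt-nd6 was 0.022 higher in SUG than in CTL on the log2 scale (SE 0.097, 95% interval -0.18 to 0.23, adjusted p = 0.979, edgeR quasi-likelihood test with Benjamini-Hochberg adjustment), and 4 of 7 SUG rats were above the CTL mean. Across the 20865 transcripts tested, edgeR called 0% at an adjusted p under 0.05, whereas 7.39% (1542) had an unadjusted p under 0.05 and DESeq2 called 19. The exact permutation test on log2 CPM gave p = 0.803 for Mt-nd6, and adjusted p = 0.872 over the 9 tests of this kind. The sign of this small difference rested on single rats, since it was below 0 without SUG rat 2 (-0.0062), SUG rat 5 (-0.0076), CTL rat 1 (-0.030) or CTL rat 2 (-0.0096).

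The second comparison asked the same of Parabacteroides enrichment. Mt-nd6 was 0.037 higher in ABX-PARA than in the combined controls on the log2 scale (SE 0.063, 95% interval -0.094 to 0.17, edgeR adjusted p = 0.926), and 3 of 7 ABX-PARA rats were above the control mean. Of 20827 transcripts tested, edgeR called 0%, 7.96% (1658) had an unadjusted p under 0.05, and DESeq2 called 13. Without ABX-PARA rat 8 the difference was -0.0071.

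The sample numbers in the labels form an early set (10 rats) and a late set (24 rats), called so by number alone and not by date. The differences were not alike in both. For SUG against CTL, Mt-nd6 differed by 0.17 on the log2 scale in the early set (2 against 2) and by -0.030 in the late set (5 against 5, exact permutation p = 0.841). In the early set (2 ABX-PARA and 4 control rats) Mt-nd6 was 0.21 higher in ABX-PARA on the log2 scale, and in the late set (5 against 9) it was 0.028 lower (exact permutation p = 0.721 in the late set). For ABX-SAL against SAL-SAL it differed by -0.013 (1 against 3) and by -0.039 (5 against 4, exact permutation p = 0.746). The differences between the sets were not tested. In the early set alone, the edgeR fit for ABX-PARA (2 treated rats) gave 0.22 with an unadjusted p of 0.0240 and an adjusted p of 0.974. For SUG (2 treated rats) it gave 0.17 with an unadjusted p of 0.284 and an adjusted p of 0.990.

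The third comparison addressed the antibiotics alone. Mt-nd6 was lower in ABX-SAL than in SAL-SAL by a log2 difference of -0.033 (SE 0.078, 95% interval -0.20 to 0.14, edgeR adjusted p = 0.995), with 3 of 6 ABX-SAL rats above the SAL-SAL mean. Of 20954 transcripts edgeR called 0%, 4.34% (910) had an unadjusted p under 0.05, and DESeq2 called 4. The difference became 0.020 without ABX-SAL rat 6 and 0.022 without SAL-SAL rat 6, the lowest and the highest rat of the comparison.

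The sugar effect and the Parabacteroides effect on Mt-nd6 were also set against each other in 1 fit over all 34 rats. They differed by -0.023 on the log2 scale (SE 0.116, 95% interval -0.26 to 0.21, edgeR adjusted p = 0.975, 4 of 7 SUG and 3 of 7 ABX-PARA rats above their control mean). In that fit edgeR called 0% of 20909 transcripts, 8.19% (1713) had an unadjusted p under 0.05, and DESeq2 called 4. The sign turned without CTL rat 3 (0.057), CTL rat 5 (0.0037), SUG rat 6 (0.0018), SUG rat 7 (0.0097), ABX-PARA rat 8 (0.025) or ABX-SAL rat 6 (0.0014).

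The strand ratio was examined next, since it does not depend on how the libraries are scaled. Over the 34 rats Mt-nd6 made up 0.0652% (CTL rat 1, 95% Wilson interval 0.0616 to 0.0690) to 0.0931% (SAL-SAL rat 6, 0.0887 to 0.0976) of mitochondrial mRNA reads, or 1 read for every 1533 to 1074 heavy-strand reads. These intervals cover counting error only, and they do not overlap between those 2 rats.

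In the 7 SUG rats the Mt-nd6 share ran from 0.0719% to 0.0902%, with a median of 0.0870% and a mean of 0.0834 ± 0.0080 (SD). In the 7 CTL rats it ran from 0.0652% to 0.0896%, with a median of 0.0728% and a mean of 0.0760 ± 0.0084 (SD). Most SUG rats (5 of 7) lay above the CTL mean, SUG rats 6 and 7 lay below it, and CTL rats 3 (0.0896%) and 5 (0.0848%) lay among the upper SUG rats. The log2 strand ratio was 0.14 higher in SUG (95% interval -0.033 to 0.32), a 1.10-fold difference that did not pass the test (two-sided exact permutation p = 0.135, adjusted p = 0.488 over 9 tests).

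This difference had the same sign in both sets of label numbers, at 0.22 in the early set (2 against 2) and 0.10 in the late set (5 against 5, exact permutation p = 0.333). Its unadjusted exact permutation p was below 0.05 without CTL rat 3 (0.18, p = 0.0466) and when the ratio was formed from TPM instead of reads (0.18, p = 0.0425). In TPM, Mt-atp8 and Mt-nd4l, whose effective lengths are 10.4 and 49.7 bases, weigh far more in the heavy-strand sum, Mt-atp8 with a mean of 428159 TPM.

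In the 7 ABX-PARA rats the Mt-nd6 share ran from 0.0707% to 0.0902%, with a median of 0.0758% and a mean of 0.0780 ± 0.0063 (SD). In the 13 combined controls it ran from 0.0741% to 0.0931%, with a median of 0.0784% and a mean of 0.0808 ± 0.0049 (SD). Only ABX-PARA rats 7 and 8 exceeded the control mean. The log2 ratio was lower in ABX-PARA by a difference of -0.052 (95% interval -0.15 to 0.042, exact permutation p = 0.263, adjusted p = 0.593), and 2 of 7 ABX-PARA rats were above the control mean. Without ABX-PARA rat 7, whose heavy-strand sum was the lowest of its group, the difference was -0.087 (exact permutation p = 0.0407). With Mt-nd5 alone as the denominator the direction turned (0.066, exact permutation p = 0.305), and with the heavy-strand complex I mRNAs it was -0.018 (exact permutation p = 0.724), while TPM gave -0.031 (exact permutation p = 0.465). Against the whole sum it was 0.023 in the early set of label numbers and -0.084 in the late set (exact permutation p = 0.195).

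The 6 ABX-SAL rats had Mt-nd6 shares of 0.0741% to 0.0837% with a median of 0.0808%, and the 7 SAL-SAL rats 0.0774% to 0.0931% with a median of 0.0784%. The ABX-SAL rats were the least scattered of all groups in this measure, with a coefficient of variation of 4.88% against 11.1% in CTL. The log2 ratio differed by -0.021 (95% interval -0.13 to 0.090, exact permutation p = 0.699, adjusted p = 0.872). It was 0.0037 in the early set and -0.055 in the late set (exact permutation p = 0.437). The sign was positive without ABX-SAL rat 5 (0.0012) or SAL-SAL rat 6 (0.012).

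Ordered by the mean log2 ratio the groups ran SUG (-10.23), SAL-SAL (-10.27), ABX-SAL (-10.29), ABX-PARA (-10.33) and CTL (-10.37). CTL was thus lowest in both orders, while SUG was next to lowest by Mt-nd6 level and highest by ratio. Neighbours again did not differ beyond their spread (exact permutation p from 0.465 to 0.699, adjusted p = 0.803 over the 8 tests).

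**Figure D3:**
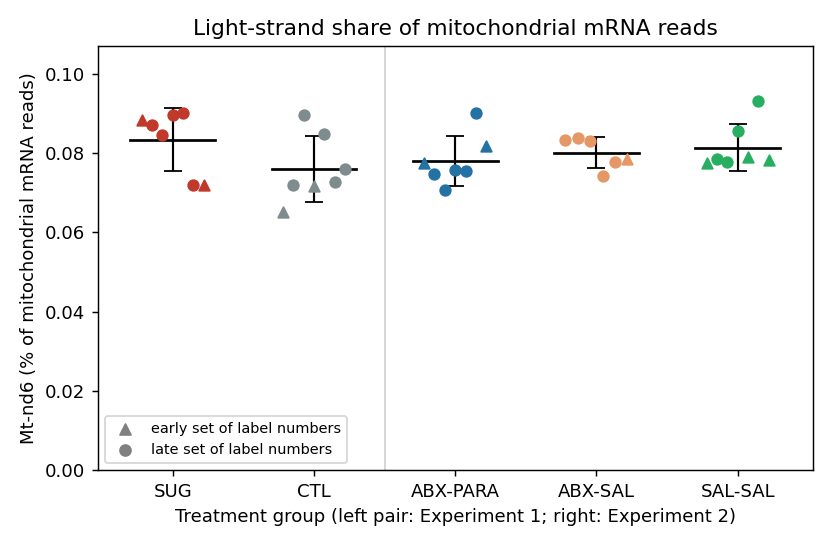
Mt-nd6 reads as a percentage of all mitochondrial mRNA reads, 1 point per rat, with the mean and SD of each group. SUG has the highest mean (0.0834%) and CTL the lowest (0.0760%), and the rats of all groups overlap.

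The other side of the ratio was the heavy-strand sum, which took 9.35% to 13.5% of all assigned reads. The SUG rats ran from 93442 to 109236 CPM with a median of 105872, and the CTL rats from 103824 to 125682 with a median of 111079. All 7 SUG rats were below the CTL mean, although the groups overlapped between 103824 and 109236 CPM. The log2 difference was -0.11 (95% interval -0.22 to 0.0030, exact permutation p = 0.0565, adjusted p = 0.488), so it did not pass the test. It was -0.053 in the early set and -0.13 in the late set (exact permutation p = 0.111). The unadjusted exact permutation p fell below 0.05 without CTL rat 1 (-0.13, p = 0.0286), CTL rat 2 (-0.13, p = 0.0321) or CTL rat 7 (-0.12, p = 0.0490), and with no TMM scaling (-0.11, p = 0.0321).

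In ABX-PARA the heavy-strand sum ran from 96766 to 133378 CPM with a median of 118279, against 92238 to 130298 with a median of 111552 in the combined controls. Most ABX-PARA rats (6 of 7) were above the control mean, and rat 7 was the lowest of the group. The log2 difference was 0.092 (95% interval -0.041 to 0.22, exact permutation p = 0.163, adjusted p = 0.488). It was 0.19 in the early set and 0.055 in the late set (exact permutation p = 0.490). Without ABX-PARA rat 7 it was 0.14 (exact permutation p = 0.0275) and without ABX-PARA rat 8 it was 0.062 (exact permutation p = 0.350). In ABX-SAL against SAL-SAL the difference was -0.012 (95% interval -0.18 to 0.15, exact permutation p = 0.872), with 4 of 6 ABX-SAL rats above the SAL-SAL mean, and its sign changed with the scaling, at 0.0044 without TMM, and between the sets, at -0.017 and 0.016. It also turned positive without ABX-SAL rat 2, ABX-SAL rat 6, SAL-SAL rat 1 or SAL-SAL rat 6, with 0.0040 to 0.038.

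By single mRNA, 11 of the 12 heavy-strand mRNAs were at lower fitted values in SUG than in CTL, with a median log2 difference of -0.12 beside 0.0029 over all transcripts tested. The fitted values of 11 heavy-strand mRNAs lay below that of Mt-nd6. Of the complex I subunits, Mt-nd4l had the lowest value (-0.17, SE 0.073, edgeR unadjusted p = 0.0366, adjusted p = 0.664) and Mt-nd3 was the exception at 0.037 (SE 0.124). Mt-nd1, Mt-nd2, Mt-nd4 and Mt-nd5 lay at -0.077, -0.12, -0.12 and -0.13. Mt-cyb of complex III was at -0.14 (SE 0.058, edgeR unadjusted p = 0.0277, adjusted p = 0.657), and Mt-atp8 of the ATP synthase was at -0.16 (SE 0.062, edgeR unadjusted p = 0.0184, adjusted p = 0.647), with Mt-atp6 at -0.10.

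The 3 subunits of cytochrome c oxidase gave -0.073 (Mt-co1), -0.12 (Mt-co2) and -0.081 (Mt-co3). In all, 3 of 12 heavy-strand mRNAs had an unadjusted p under 0.05, all of them lower, beside 3.72% of all transcripts lower at that threshold, and none passed after adjustment by edgeR or by DESeq2. These mRNAs are cut from 1 precursor and are not separate pieces of evidence.

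In ABX-PARA the fitted values lay on the other side of 0 for 11 of 12 heavy-strand mRNAs, with a median of 0.098 beside -0.0027 over all transcripts tested. With each rat left out in turn, 9 to 12 of the 12 were above 0, and the median ran from 0.052 (without ABX-PARA rat 8) to 0.15 (without ABX-PARA rat 7). The median was 0.21 in the early set (12 of 12 above 0) and 0.049 in the late set (9 of 12). Only 2 of the 12 lay below Mt-nd6. Mt-cyb was highest (0.16, SE 0.060, edgeR unadjusted p = 0.0138, adjusted p = 0.560), followed by Mt-nd3 (0.16, SE 0.069, edgeR unadjusted p = 0.0330, adjusted p = 0.592). The remaining values ran from 0.031 (Mt-nd4l) to 0.11 (Mt-co3 and Mt-nd1), and Mt-nd5 was the exception at -0.020 (SE 0.074). These 2 of 12 with an unadjusted p under 0.05 stand beside 4.11% of all transcripts higher at that threshold. In ABX-SAL against SAL-SAL the values were -0.067 to 0.025 with a median of -0.011, none with an unadjusted p under 0.05, and their signs depended on the processing, with 3 of 12 above 0 here and 9 when the set of label numbers was in the model.

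When the sugar effect was set against the Parabacteroides effect, all 12 heavy-strand differences were negative, with a median of -0.20 beside -0.0038 over all transcripts, and all lay below that of Mt-nd6 (-0.023). Mt-cyb had the largest of them (-0.31, SE 0.087, edgeR unadjusted p = 0.00115, adjusted p = 0.534), then Mt-atp8 (-0.24, SE 0.097, edgeR adjusted p = 0.544). With an unadjusted p under 0.05 there were 6 of 12, beside 4.28% of all transcripts lower at that threshold. None passed after adjustment by edgeR or DESeq2, so that a difference between both effects on the heavy-strand mRNAs was not shown.

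**Figure D4:**
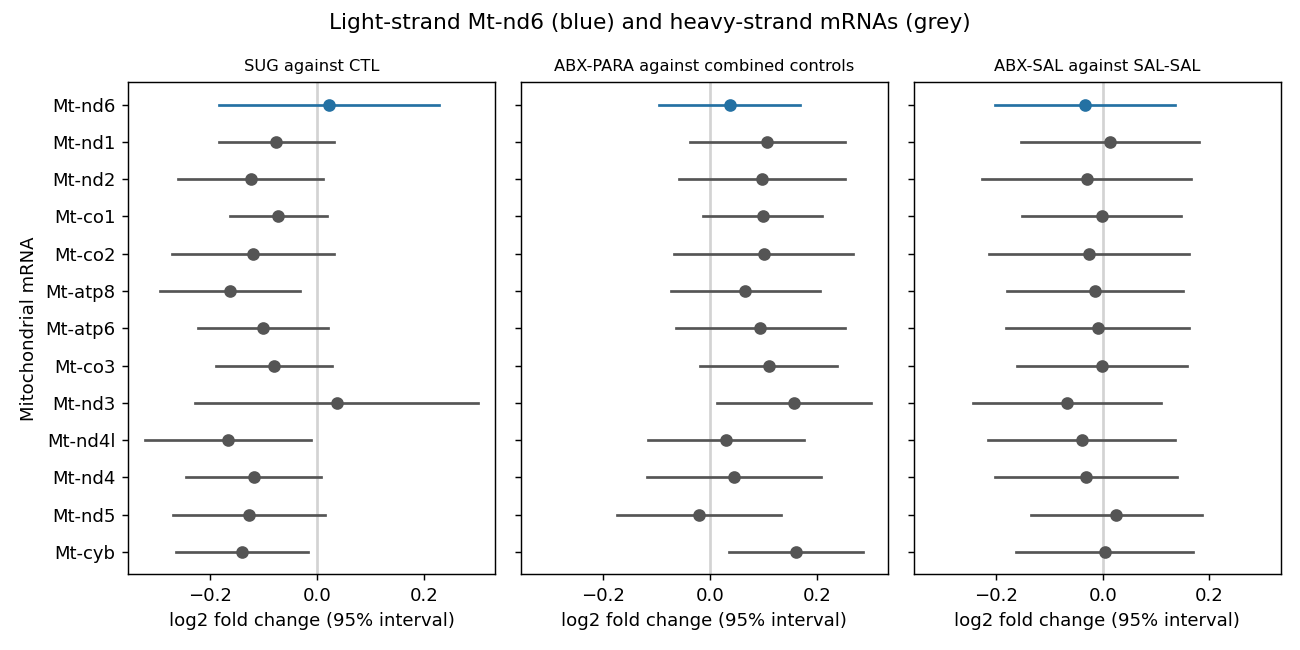
Fitted log2 fold changes with 95% intervals for Mt-nd6 (blue) and the 12 heavy-strand mRNAs (grey) in the 3 comparisons. The heavy-strand mRNAs have a median of -0.12 in SUG and 0.098 in ABX-PARA. The fitted value of Mt-nd6 stays within 0.04 of 0 in each comparison. However, its intervals, -0.18 to 0.23 in SUG and -0.094 to 0.17 in ABX-PARA, contain those medians. No mRNA passed the adjusted threshold.

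Although its captured reads were few, Mt-nd6 followed the heavy-strand mRNAs from rat to rat. Over the 34 rats, log2 CPM of Mt-nd6 and of the heavy-strand sum correlated with Pearson's r = 0.659 (permutation p = 4e-05, adjusted p = 0.000217 over 26 correlations) and Spearman's rho = 0.627 (permutation p = 9e-05, adjusted p = 0.00026). Without the 2 rats farthest from the median heavy-strand sum, r was 0.557. After the group means were removed it was 0.690 over all rats together, and the single groups were not correlated separately. With the group means kept, r was 0.810 in the early set of label numbers (10 rats) and 0.632 in the late set (24 rats). It was 0.538 in Experiment 1 and 0.760 in Experiment 2. Both values of a rat come from 1 library and share its scaling factor. Mt-nd6 reads could also include RNA of the opposite strand, and the part of such reads in this relation was not tested.

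Some rats stood near the same end of both measures and others did not. ABX-SAL rat 6 had the lowest heavy-strand sum of the series (92238 CPM) and the second lowest Mt-nd6 level (71.9 CPM), and ABX-PARA rat 8 and CTL rat 3 were high in both. ABX-PARA rat 7 had a low heavy-strand sum (96766 CPM) with 87.4 CPM of Mt-nd6. SAL-SAL rat 6 had 111 CPM of Mt-nd6 at a heavy-strand sum of 118746 CPM, and CTL rat 1 had 67.7 CPM at 103824.

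**Figure D5:**
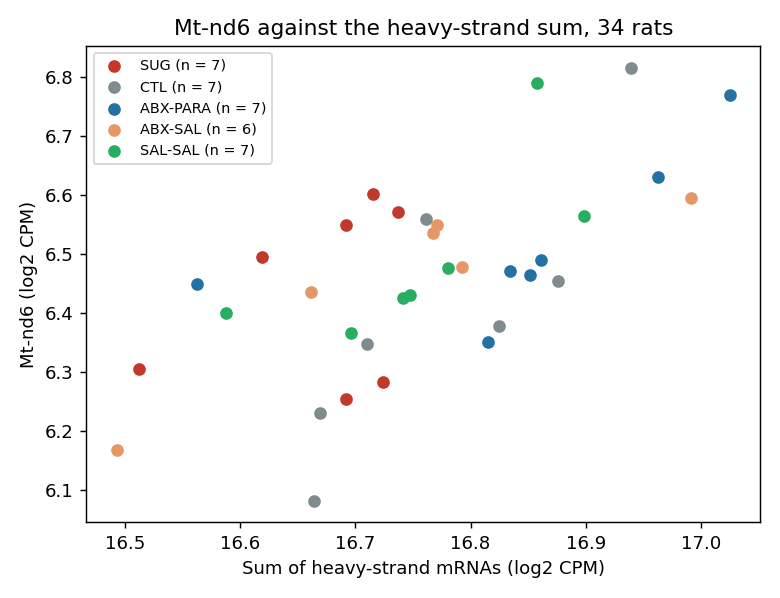
Mt-nd6 against the heavy-strand sum, both in log2 CPM, 1 point per rat, coloured by group. The points rise together (r = 0.659 over 34 rats), and SAL-SAL rat 6 and CTL rat 1 have the highest and the lowest strand ratio.

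Taken singly, 11 of the 12 heavy-strand mRNAs had r from 0.485 (Mt-cyb, permutation p = 0.00395, adjusted p = 0.00447) to 0.686 (Mt-atp8, permutation p = 2e-05, adjusted p = 0.000217). Mt-nd3 was the exception, at r = 0.266 (permutation p = 0.128) and rho = 0.340 (permutation p = 0.049, adjusted p = 0.051), and at r = 0.427 without the 2 rats farthest from its median. Its r was -0.010 in the 14 rats of Experiment 1 and 0.542 in the 20 rats of Experiment 2, where Mt-cyb had 0.578, and the difference between the experiments was not tested. It was also the mRNA whose ratio to Mt-nd6 varied most over rats, with an SD of 0.235 on the log2 scale against 0.124 for Mt-co1.

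Among 16075 transcripts with a mean above 1 log2 CPM, the 2 whose log2 CPM followed Mt-nd6 most closely over the 34 rats were Mt-atp8 (r = 0.686) and ENSRNOT00000006230.5 (r = 0.655, 90.7 CPM), a transcript the files do not pair with a gene and whose reads were divided with others. Ranks 3 to 6 were Mt-co1, Mt-nd1, Mt-co3 and Mt-nd4l, and Mt-nd2 was at rank 8. Mt-cyb was at rank 140 and Mt-nd3 at rank 1940, with 12.1% of transcripts above it. These ranks are a description over 34 libraries.

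The scatter of Mt-nd6 between rats was set beside that of the heavy-strand sum and of transcripts of like level. The SD of log2 CPM of Mt-nd6 within groups was 0.17, and the counting error of its reads was 2.12% to 2.89% of a rat's value. The heavy-strand sum had an SD within groups of 0.12, and so did the ratio. The difference between Mt-nd6 and the heavy-strand sum was widest in Experiment 1, with SDs of 0.24 against 0.11 in CTL and of 0.15 against 0.080 in SUG. In Experiment 2 the SDs were 0.14 against 0.15 in ABX-PARA, 0.15 against 0.16 in ABX-SAL and 0.15 against 0.10 in SAL-SAL. In the SUG and CTL fit, edgeR's biological coefficient of variation was 12.8% for Mt-nd6, against a median of 6.61% for the 1952 transcripts within 0.5 log2 CPM of it, 90.3% of which were lower. In the ABX-PARA fit it was 9.70% against 8.16%, with 64.1% of such transcripts lower. In the ABX-SAL fit it was 10.3% against 7.78%, with 74.0% lower. Of the heavy-strand mRNAs, 9 of 12 were above Mt-nd6 in the ABX-PARA fit, where all 12 ran from 8.23% (Mt-co1) to 12.3% (Mt-co2), and 6 of 12 in the ABX-SAL fit, where they ran from 8.96% (Mt-co1) to 11.8% (Mt-nd2). In the SUG and CTL fit 1 of 12 was above it, Mt-nd3 at 16.4%.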

How the data were processed

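RNA from the dorsal hippocampus of 34 rats was made into libraries with a NuGen Universal Plus mRNA-seq kit and read from 1 end. Each library is a separate rat, so p-values measure the spread between rats. The authors trimmed reads with Trim Galore, checked them with FastQC and quantified them against a rat transcriptome with Salmon, and deposited the estimated counts and TPM of each transcript, 1 file per rat. Salmon's strand setting is not given in the sources used here: Mt-nd6 reads could include RNA of the opposite strand. mRNA kits capture poly(A) tails, and Mt-nd6 mRNA is known in human cells to lack a stable one, so levels per length are of captured RNA; the part of either in the values was not tested. No values of other samples were present (0 columns left out). However, the paper removed 1 control and 1 treated sample of the Parabacteroides experiment as outliers in a principal component analysis of expression. The labels of ABX-PARA and ABX-SAL each lack a replicate number, so these groups may hold only rats kept after that step.

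Estimated counts were rounded. A transcript entered a comparison where over 50% of its rats had a count larger than 1, and counts were scaled by TMM and tested with edgeR 4.0.16 (quasi-likelihood) in R 4.3.3, with Benjamini-Hochberg adjustment and a threshold of 0.05. DESeq2 1.42.0, the study's tool, and limma 3.58.1 (voom) were alternatives. Single values were tested by two-sided exact permutation over rats (Python 3.11.15), adjusted over 9 tests, with 95% intervals from the same permutations; correlations used 100000 permutations. The fits of the 3 comparisons, the exact permutation test and the ranking of correlations were tried on simulated data. The contrast of both effects and the p-values of correlations were not. The strand ratio is log2 of Mt-nd6 reads over summed heavy-strand reads (pseudocount 0). CPM used TMM-scaled totals, and RPKM used all assigned reads and full lengths.

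The gene, the lists and the tests were chosen with earlier results of these data known. All 12 heavy-strand mRNAs and the 2 transcripts most correlated with Mt-nd6 are named; other singled-out transcripts and rats were chosen after their values were seen. It had been planned to identify the heavy-strand rows by reference lengths; as the reference tables used here hold no mitochondrial genes, place in the file, abundance and length order were used. No sequence is shown for the same reason, and nuclear genes of mitochondrial transcription were not analysed here. No 2 rats of a group were the same library (99 pairs, chi-square per degree of freedom 3.50 to 42.0). The early and late sets (label numbers 1 to 11, and above) are only what the labels show; other alternatives were replicate blocks, filters, scalings, denominators and leaving out each rat.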

Additional observations from a re-analysis of the deposited data

Results flagged for a closer look

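The Mt-nd6 level of ABX-SAL rat 6 (6.17 log2 CPM) lay far below the other 5 rats of its group. Its gap to the next rat took 0.627 of the group's range, just past Dixon's critical value of 0.625 for 6 rats. In all, 15 groups of values were looked at (Mt-nd6, heavy-strand sum and ratio in 5 groups), and chance gives about 1 such case in 20. The same rat had the lowest heavy-strand share of assigned reads in the series (9.35%), and its log2 strand ratio (-10.33) was within the range of its group.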

How the results depend on the processing

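No alternative brought Mt-nd6 or any heavy-strand mRNA past the adjusted threshold, and the adjusted p of Mt-nd6 ranged, fits without 1 rat included, from 0.889 to 0.998 (SUG), 0.825 to 0.999 (ABX-PARA), 0.936 to 1.00 (ABX-SAL) and 0.891 to 1.00 (sugar against Parabacteroides effect). Among log2 differences of Mt-nd6, the sign turned in the late set for SUG (-0.033) and ABX-PARA (-0.039), and for the contrast of both effects with limma voom (0.040). DESeq2 called 19, 13, 4 and 4 transcripts in those 4 comparisons, the late set 2 in the contrast, and the early set 1 in ABX-SAL; the causes were not tested. The replicate numbers did not pair the rats: of 7, 11 and 6 same-numbered pairs (SUG, ABX-PARA, ABX-SAL), 0 had a correlation over 0.1, and 2 of 7, 0 of 6 and 1 of 6 treated rats correlated best with their own number. With the replicate block edgeR still called 0 transcripts, and Mt-nd6 was at -0.014 in ABX-PARA and 0.040 in the contrast. With the same block the heavy-strand sum was at 0.036 in ABX-PARA (exact permutation p = 0.494) and 0.011 in ABX-SAL. The median heavy-strand difference was then 0.017 in ABX-PARA and -0.13 in the contrast. The strand ratio was 0.18 in SUG from TPM, 0.066 in ABX-PARA over Mt-nd5 alone, and 0.023 (ABX-PARA) and 0.0037 (ABX-SAL) in the early set. The heavy-strand sum was -0.11 in SUG and 0.0044 in ABX-SAL with no TMM, and in ABX-SAL 0.0079 with sets as strata and 0.016 in the late set. Leaving out each rat gave, in SUG, ABX-PARA and ABX-SAL, Mt-nd6 differences of -0.030 to 0.097, -0.0071 to 0.067 and -0.060 to 0.022, ratios of 0.099 to 0.18, -0.087 to -0.029 and -0.034 to 0.012, and heavy-strand sums of -0.13 to -0.081, 0.062 to 0.14 and -0.062 to 0.038; the contrast gave -0.072 to 0.057, and 0 to 1 transcripts were called. The early set alone and a denominator of whole-count mRNAs were added after seeing the data. The counting error of Mt-nd6 was at most 2.89% of a rat's value. A difference between single rats carries the error of both, so that somewhat larger ones could also go undetected at this depth. For differences between groups the spread between rats weighed more. The SD of Mt-nd6 within groups was 0.17 on the log2 scale, against 0.038 from counting alone. The fitted interval for SUG against CTL ran from -0.18 to 0.23. Group differences well above the counting error could therefore go undetected with these group sizes.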
